A study of Mus musculus with 2 samples.

Results

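The respiratory chain was read from 103 of the 17492 genes in a count matrix of mouse corneal epithelium. Members were chosen by symbol alone: rows that begin with mt-Nd, mt-Co, mt-Atp, mt-Cyt, Nduf, Uqcr or Atp5, or with Cox followed by a digit from 4 to 8, and the rows Sdha, Sdhb, Sdhc and Sdhd. Subunits filled 94 of these rows, 81 encoded in the nucleus and 13 in mitochondrial DNA. The others were 8 assembly factors of complex I (Ndufaf) and 1 row, Ndufb1-ps, which the annotation lists as a non-coding RNA. Complex I held 36 nuclear and 7 mitochondrial subunits, complex II 4 nuclear subunits, complex III 8 and 1, complex IV 16 and 3, and complex V 17 and 2. Ndufa4 and Ndufa4l2 were grouped with complex IV, because the Ndufa4 protein sits in cytochrome c oxidase despite its older name. No other mitochondrially encoded gene had a row.

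The study compared corneal epithelium from diabetic and control mice. Both groups were male C57BL/6J mice of 20 weeks, and each was a single library that pooled 4 corneas of 2 mice. The diabetic animals had received a single dose of streptozotocin, a toxin of pancreatic beta cells, at 160 mg/kg, and their blood glucose stayed over 250 mg/dL during 12 weeks, while control animals had received sodium citrate buffer. The Chromium 3′ assay tags each captured poly(A) RNA with a unique molecular identifier (UMI), and the authors gave each cell 1 of 8 labels (LSC, Basal, TAC1, TAC2, Wing, Squam, Conj, Immune), whose meaning is not given in the sources used here.

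The control library held 9605 cells and 196359192 UMIs, and the diabetic library 8203 cells and 171030636 UMIs. There were 18 cell barcodes found in both libraries. Median depth per cell in the 7 epithelial labels ran from 9260 UMIs (control LSC) to 24500 (diabetic TAC2). Chosen markers of a label were highest in that label for 3 and 2 of 5 genes for LSC (control, then diabetic), 3 and 3 of 5 for TAC1, 5 and 5 for TAC2, 5 and 4 for Wing, 4 and 4 for Squam, 3 and 3 of 4 for Conj, and 4 and 5 of 5 for Immune. For Basal cells the counts were 0 and 1 of 5. Krt5, a keratin of basal keratinocytes, was at 6535 and 6479 CPM (counts scaled to a library total of 1000000) in Basal cells. In Wing cells Krt5 was higher, at 11540 and 12114 CPM. The other chosen markers were lower in Wing than in Basal cells. Itgb4 was at 162 and 147 CPM in Basal and 13.6 and 18.5 CPM in Wing cells. Krt14 was at 504 and 609 CPM against 34.4 and 52.3 CPM. Col17a1 and Wnt10a had the same direction. In the control library Itgb4, Col17a1 and Wnt10a were highest in TAC1 cells and Krt14 in LSC cells. The chosen markers thus did not set Basal cells apart from TAC1 and LSC cells. The 26 control and 10 diabetic Immune cells are given as values only.

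Levels below are CPM, the UMIs of a gene relative to all UMIs of the same cells. With 1 library in each group there were no replicates and no test, and every 95% interval covers counting error only. A gene is called higher or lower by a rule of size: a CPM ratio of at least 1.5 in either direction, a sum of at least 50 UMIs, and Poisson intervals that do not overlap. The share of all genes that meets the same rule is given beside each count, except at alternative settings where it was not computed.

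The respiratory chain moves electrons from NADH and succinate to oxygen and stores the energy as a proton gradient across the inner mitochondrial membrane. Complex I (NADH dehydrogenase) and complex II (succinate dehydrogenase) feed ubiquinone, complex III passes electrons from ubiquinone to cytochrome c, complex IV (cytochrome c oxidase) reduces oxygen, and complex V (ATP synthase) uses the gradient to make ATP. Every complex except complex II mixes subunits of both genomes, with the catalytic cores of complexes III and IV carrying mitochondrially encoded proteins and most accessory subunits coming from the nucleus. The corneal epithelium also relies on glycolysis, and its surface cells are shed and replaced from below.

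Over all cells, nuclear subunits were slightly lower in the diabetic library and mitochondrial subunits were not. The 81 nuclear subunits summed to 23332 CPM in the control and 21173 CPM in the diabetic library, a ratio of 0.907 (95% interval 0.906 to 0.909), and the intervals of the sums did not overlap. The 13 mitochondrial subunits summed to 15886 and 16616 CPM, a ratio of 1.046 (1.044 to 1.048). That direction for the mitochondrial sum turned to 0.992 when every cell had equal weight, and the ratio was 1.012 with equal label weights. Within the epithelial labels it ran only from 0.969 in Squam to 1.033 in TAC2, below the value over all cells.

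No single row met the rule of size over all cells. Of 101 rows with enough UMIs, 0 were called higher (5.98% of all 13846 genes tested) and 0 lower (2.8%). A ratio below 1 was seen for 70 of 79 nuclear subunits tested, against 38.6% of all genes, and their median log2 ratio was -0.12 against 0.07 for all genes. Among mitochondrial subunits 6 of 13 were below 1, with a median log2 ratio of 0.00. Most nuclear rows thus stood slightly lower, with no member past the fold used.

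**Figure D1:**
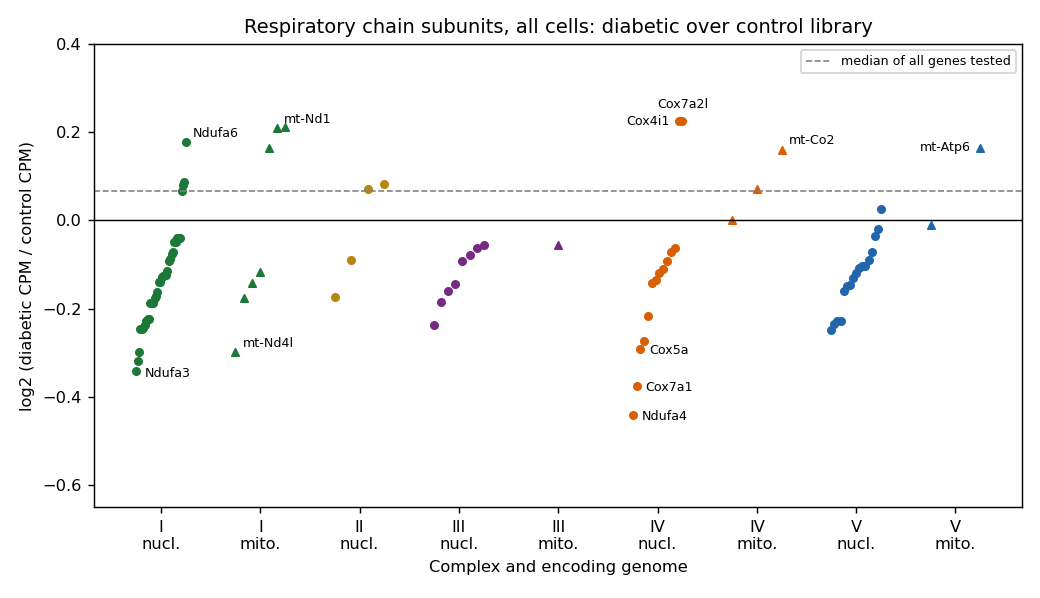
Log2 ratio of diabetic over control CPM in all cells (vertical axis) for each subunit with 50 or more UMIs, grouped along the horizontal axis by complex and genome (circles nuclear, triangles mitochondrial); the dashed line is the median of all genes tested, 0.07. Most nuclear circles lie below 0, with Ndufa4 lowest at -0.44, and mitochondrial triangles lie on both sides.

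In complex I the nuclear sum was 6455 CPM in the control and 5853 CPM in the diabetic library (ratio 0.907, 0.904 to 0.909), and 32 of 36 nuclear subunits had a ratio below 1. Lowest were Ndufa3, an accessory subunit of the membrane arm, at 202 and 160 CPM (ratio 0.789, 0.777 to 0.801), and Ndufs8, which carries iron-sulphur clusters on the electron path, at 127 and 102 CPM (0.802, 0.786 to 0.818). At the other end stood Ndufa6, an accessory LYR-motif subunit, at 139 and 157 CPM (1.13, 1.11 to 1.15). The 3 intervals for these ratios did not include 1. The 8 assembly factors, which build complex I without staying in it, ranged from 0.811 for Ndufaf3 to 1.10 for Ndufaf5, whose interval (0.958 to 1.26) included 1.

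Mitochondrially encoded complex I subunits, which form the proton-pumping membrane arm, split into 2 directions. The mt-Nd4l row was at 286 CPM in the control and 232 CPM in the diabetic library (0.813, 0.803 to 0.824), and mt-Nd4 at 1040 and 921 CPM (0.886, 0.880 to 0.891). The ratio was 0.906 for mt-Nd2 and 0.922 for mt-Nd5. By contrast mt-Nd1 was at 663 and 767 CPM (1.16, 1.15 to 1.17), mt-Nd3 at 232 and 260 CPM (1.12, 1.11 to 1.14) and mt-Nd6 at 8.72 and 10.1 CPM (1.16, 1.08 to 1.24). The 7 rows summed to 3011 and 2901 CPM, a ratio of 0.964. Genes for mt-Nd4l and mt-Nd4 overlap on mitochondrial DNA and share a transcript, as do mt-Atp8 and mt-Atp6, so reads in the overlaps cannot be assigned with certainty.

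The 4 complex II subunits were divided. Sdhb, the iron-sulphur subunit, was at 178 and 158 CPM (0.887, 0.873 to 0.901), and Sdhc, a membrane anchor, at 21.7 and 20.4 CPM (0.940, 0.898 to 0.983). Sdha, the flavoprotein that oxidises succinate, was at 53.7 and 56.4 CPM (1.050, 1.02 to 1.08), and the anchor Sdhd at 62.9 and 66.6 CPM (1.06, 1.03 to 1.09). Their sum had a ratio of 0.952.

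All 8 nuclear subunits of complex III had a ratio below 1. Uqcrb, which helps bind ubiquinone, was lowest at 465 and 395 CPM (0.849, 0.841 to 0.858), followed by the core subunit Uqcrc2 at 96.0 and 84.5 CPM (0.880). The highest ratios were 0.962 for the hinge protein Uqcrh and 0.958 for Uqcr10. Cytochrome b, the mitochondrially encoded core (mt-Cytb), was at 2249 and 2163 CPM, the same side at 0.962 (0.958 to 0.966).

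Complex IV held both the lowest and the highest nuclear ratios of the chain. Ndufa4 was at 1499 CPM in the control and 1105 CPM in the diabetic library, 1.36-fold lower (ratio 0.737, 0.733 to 0.742). Cox7a1, the isoform known from heart and skeletal muscle, was at 9.74 and 7.51 CPM (0.771, 0.718 to 0.828), and Cox5a, a matrix-side subunit, at 489 and 399 CPM (0.817, 0.809 to 0.826). In contrast, Cox4i1, the broadly expressed isoform of subunit 4, was at 608 and 710 CPM (1.17, 1.16 to 1.18). Cox7a2l, a relative of Cox7a2 known for joining complexes III and IV and carried by C57BL/6J mice in a shortened form, was at 282 and 329 CPM (1.17, 1.16 to 1.18). These 2 were the only nuclear complex IV subunits above 1 among 14 tested. The catalytic mt-Co1 was at 1845 and 1845 CPM (1.0003, 0.996 to 1.005), mt-Co2, which takes electrons from cytochrome c, at 3139 and 3508 CPM (1.12, 1.11 to 1.12), and mt-Co3 at 1585 and 1665 CPM (1.051, 1.046 to 1.056).

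In complex V 16 of 17 nuclear subunits were below 1. Atp5d, the delta subunit of the central stalk, was lowest at 507 and 427 CPM (0.842, 0.834 to 0.850), followed by Atp5md, a small membrane subunit, at 302 and 257 CPM (0.850). Atp5a1, the alpha subunit of the catalytic head, was highest at 205 and 209 CPM (1.018, 1.004 to 1.033), and Atp5g2, 1 of 3 genes for the c-ring, followed at 705 and 696 CPM (0.987). The mitochondrially encoded mt-Atp6, part of the proton channel, was at 3937 and 4413 CPM (1.12, 1.117 to 1.124). Its neighbour mt-Atp8 was at 122 and 121 CPM, with an interval of 0.974 to 1.011 that included 1.

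The low ratio of nuclear subunits recurred across labels. In each epithelial label taken alone the nuclear sum was lower in the diabetic cells, from 0.968 (0.957 to 0.978) in LSC through 0.940 in TAC1, 0.930 in TAC2, 0.913 in Basal, 0.888 in Conj and 0.886 in Wing to 0.856 (0.853 to 0.859) in Squam. Of 77 nuclear subunits tested in all 7 epithelial labels, 46 were below 1 in every label, against 11.5% of all 7952 genes tested in them. None was above 1 in every label (10.2% of all genes). Among the 46 were Ndufb2 (0.657 to 0.854), Ndufs8 (0.755 to 0.844), Uqcrb (0.835 to 0.936), Cox7a2 (0.862 to 0.940) and Atp5h (0.839 to 0.911). The intervals of these 5 lay below 1 in all 7 labels, whereas others of the 46 had intervals that included 1 in some labels. In LSC cells the interval lay below 1 for 19 of 77 nuclear subunits, beside 938 of all 8567 genes tested there. It lay above 1 for 7 of the 77, beside 864 of the 8567, so that count is near the share of all genes. Label by label, nuclear subunits below 1 numbered 54 of 77 in LSC (48.7% of all genes), 72 of 79 in Basal (49%), 70 of 79 in TAC1 (48%), 71 of 79 in TAC2 (43.8%), 71 of 78 in Wing (43.1%), 71 of 78 in Squam (61.1%) and 72 of 78 in Conj cells (46.5%). Their median log2 ratios ran from -0.08 in LSC to -0.20 in Squam cells, where the median of all genes was 0.01 and -0.08. The labels come from the same 2 libraries and are not replicates of the diabetic state. Per cell, the median share of UMIs from nuclear subunits was 2.39% (quartiles 2.04 to 2.64) in control and 2.17% (1.84 to 2.43) in diabetic cells.

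Of the 13 mitochondrial rows mt-Nd2, mt-Nd4, mt-Nd4l, mt-Nd5 and mt-Cytb were below 1 in all 7 labels (38.5%, against 11.5% of all genes). Above 1 in all 7 were mt-Co2 and mt-Atp6 (15.4%, against 10.2% of all genes). The interval lay wholly below 1 in 5 labels for mt-Nd5 and wholly above 1 in 6 for mt-Atp6. The mt-Nd4l ratio ran from 0.711 to 0.796 and that of mt-Co2 from 1.051 to 1.104. For mt-Atp6 the range was 1.009 to 1.112. For these 7 rows the side of 1 over all cells was thus the same within each label. The ratios of the other 6 rows (mt-Nd1, mt-Nd3, mt-Nd6, mt-Co1, mt-Co3 and mt-Atp8) were on different sides of 1 in different labels. Of those 6, mt-Atp8 had an interval wholly below 1 in 3 labels and wholly above 1 in 0, and mt-Nd6 in 1 and 1.

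Across the 7 epithelial labels 4 pairs of a row and a label met the rule of size. In LSC cells mt-Nd6, a complex I subunit and the only one of them encoded on the opposite strand, with an mRNA known largely to lack a poly(A) tail (mitochondrial DNA 13552 to 14070, GRCm38), rose from 8.26 CPM (4.90 to 13.1) to 20.6 CPM (16.7 to 25.2), a ratio of 2.50 (1.498 to 4.39), beside 2.63% of all genes called higher and 2.61% called lower there. The counts behind it were 18 and 95 UMIs. In Conj cells mt-Nd6 fell from 9.63 CPM (7.89 to 11.6) to 5.65 CPM (4.34 to 7.22), a ratio of 0.586, beside 1.95% of all genes called lower and 2.52% called higher. In Squam cells Ndufb2, a small membrane subunit of complex I (chromosome 6, 39592574 to 39603382, GRCm38), fell from 83.7 CPM (80.9 to 86.6) to 55.0 CPM (52.4 to 57.7), 1.52-fold, beside 7.75% of all genes called lower and 1.79% called higher. In Basal cells Cox6b2, the testis isoform of subunit 6b, fell from 2.40 to 1.21 CPM on 76 and 41 UMIs, beside 2.38% of all genes. In TAC1, TAC2 and Wing cells 0 rows were called (1.7%, 2.21% and 3.93% of all genes called higher; 1.52%, 1.35% and 2.59% lower). Atp5g1, a c-ring gene, stood just outside the fold in Squam cells, at 181 and 121 CPM, a ratio of 0.668.

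Ndufa4 did not show a uniform ratio across labels. It was 0.728 (0.720 to 0.737) in Squam, 0.731 in Wing, 0.770 in Basal, 0.811 in TAC2, 0.871 in TAC1 and 0.923 in Conj cells. In LSC cells it was on the other side, at 694 and 776 CPM (1.12, 1.05 to 1.19). Cox5a likewise was below 1 in 6 labels and at 1.016 in LSC cells, with an interval of 0.927 to 1.11 that included 1. The differences between labels were not tested.

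Because both sums come from the same cells, the ratio of mitochondrial to nuclear subunit UMIs does not depend on the total used for CPM. Over all cells it was 0.681 (0.680 to 0.682) in the control and 0.785 (0.784 to 0.786) in the diabetic library. It was higher in the diabetic library in each epithelial label: 1.18 and 1.24 in LSC, 0.766 and 0.844 in Basal, 0.780 and 0.831 in TAC1, 0.688 and 0.765 in TAC2, 0.624 and 0.725 in Wing, 0.649 and 0.734 in Squam, and 0.642 and 0.730 in Conj cells. None of the 7 pairs of intervals overlapped. The gap was smallest in relative terms in LSC cells and largest in Wing cells.

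By complex, the distance between the libraries was larger in complexes IV and V than in I and III. In complex V the ratio was 0.561 in the control and 0.686 in the diabetic library over all cells, in complex IV 0.939 and 1.12, and both were higher in the diabetic cells of all 7 labels. In complex I it was 0.466 and 0.496 over all cells, but 0.535 and 0.525 in Squam and 0.353 and 0.320 in Conj cells. In complex III it was 0.965 and 1.010, with the opposite order in LSC (1.34 and 1.21), Squam (0.783 and 0.746) and Conj cells (0.772 and 0.690). In TAC2 cells its values of 1.056 and 1.058 had overlapping intervals. In the 26 and 10 Immune cells the ratio over all complexes was 0.897 and 1.51.

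**Figure D2:**
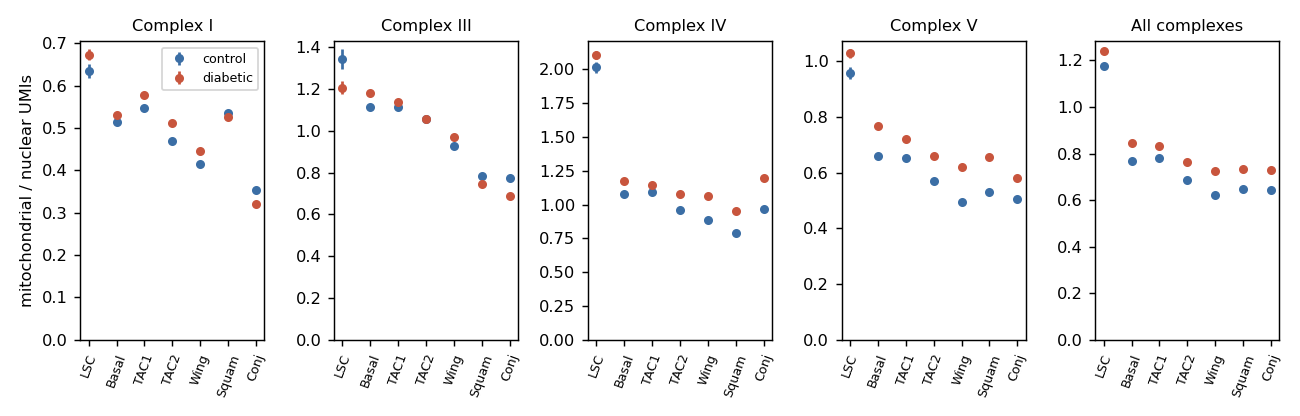
Ratio of mitochondrial to nuclear subunit UMIs (vertical axis, from 0) in each epithelial label (horizontal axis) for complexes I, III, IV and V and for all complexes, with 95% counting intervals; blue is control and red diabetic. LSC cells stand highest in each panel, and over all complexes each red point lies above its blue point.

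LSC cells had the highest mitochondrial levels of the epithelial labels. In the control library 11 of 13 mitochondrial subunits were highest in LSC cells, and in the diabetic library 13 of 13. The share of all genes highest in LSC cells was not computed, so these counts have no background beside them. The sum was 27303 CPM in control cells and 27836 CPM in diabetic LSC cells, against 19074 and 19180 CPM in Basal cells, whereas nuclear subunits summed to 23203 and 22451 CPM in LSC and 24889 and 22714 CPM in Basal cells. Called higher in LSC than Basal cells in both libraries were 2 of 101 rows (10.9% of all genes), mt-Co1 and mt-Co3. The mt-Co1 level was 3816 and 4076 CPM in LSC and 1643 and 1476 CPM in Basal cells (ratios 2.32 and 2.76), and mt-Co3 was at 3290 and 3353 against 1813 and 1771 CPM (1.81 and 1.89). Only 1 row was called lower (4.27% of all genes): Ndufs4, an accessory subunit of the electron input module, at 112 and 96.9 CPM in LSC against 172 and 147 CPM in Basal cells. The median over all genes in this comparison was 0.15 and 0.16 on the log2 scale, and the median over mitochondrial subunits 0.35 and 0.39.

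Several other values moved with the LSC label. Its cells had the lowest median depth of the 7, 9260 and 12284 UMIs. Their median mitochondrial share, 2.69% and 2.72%, was the highest. That share counts the same 13 mitochondrial rows as the sum, so it is not a separate value. A filter on it selects cells by the rows that the ratio measures. Without cells over 10% mitochondrial UMIs, the mitochondrial to nuclear ratio in LSC relative to Basal cells was 1.505 in control and 1.410 in diabetic cells, compared with 1.54 and 1.47 with all cells. Of 5 stromal markers 1 had a row, Dcn, at 13.3 and 23.7 CPM in LSC cells and at most 2.26 CPM in the other epithelial labels. Of 4 endothelial markers 2 had a row: Slc4a11 was at 1.84 and 17.2 CPM in LSC cells and between 0.392 and 7.41 CPM in the other epithelial labels, and Pecam1 was at 0 and 0.217 CPM in LSC cells. The 4 Conj markers with a row summed to 1532 and 1700 CPM in LSC cells against 39.7 and 20.0 CPM in Basal cells, and 1 of them, Cyp2f2, was higher in LSC (267 and 236 CPM) than in Conj cells (98.1 and 124 CPM). Conj cells also had a high mt-Co1 level, 3167 and 3934 CPM. The part of these other cells in the result was not tested.

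In the comparison of Squam with Basal cells most members were lower in Squam cells on the CPM scale. Squam cells had the lowest level for 69 of 81 nuclear subunits in the control and 67 in the diabetic library, and for 10 and 9 of 13 mitochondrial subunits. The control count includes Ndufa4l2, which had 0 UMIs in both Squam and Conj cells. The share of all genes lowest in Squam cells was not computed, so these counts have no background beside them. Nuclear subunits summed to 24889 CPM in Basal and 17234 CPM in Squam cells of the control library and to 22714 and 14755 CPM in the diabetic library, and mitochondrial subunits to 19074 and 11179 CPM and to 19180 and 10832 CPM. Those directions belong to CPM: under median-of-ratios scaling the same Squam over Basal ratios were 1.254 and 1.254 for nuclear and 1.061 and 1.090 for mitochondrial subunits. Most genes were lower in Squam cells on the CPM scale, with a median log2 ratio over all genes of -0.98 in control and -1.08 in diabetic cells. In Squam cells 57 abundant genes held 45.0% and 47.0% of all UMIs, against 33.5% and 34.3% in Basal cells.

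By the rule of size, met in both libraries, 69 of 100 rows were lower in Squam cells (58.8% of all genes) and 3 were higher (16.1%). A ratio below 1 in both libraries was seen for 88 rows (72.6% of all genes). Under median-of-ratios scaling 17 rows were lower (34.3% of all genes under that scaling) and 19 higher (29.3%). Nuclear subunits had median log2 ratios of -0.78 and -0.80, which is 0.20 and 0.28 above the medians of all genes, and mitochondrial subunits -0.93 and -1.02, or 0.05 and 0.06 above. The complexes differed in level. Median log2 ratios of nuclear subunits were -0.92 and -0.94 for complex I, -0.87 and -0.82 for complex II, -0.62 and -0.64 for complex III, -0.81 and -0.81 for complex V, and -0.07 and -0.14 for complex IV. Complex IV thus lay 0.91 and 0.94 above the medians of all genes, the highest of the 5.

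**Figure D3:**
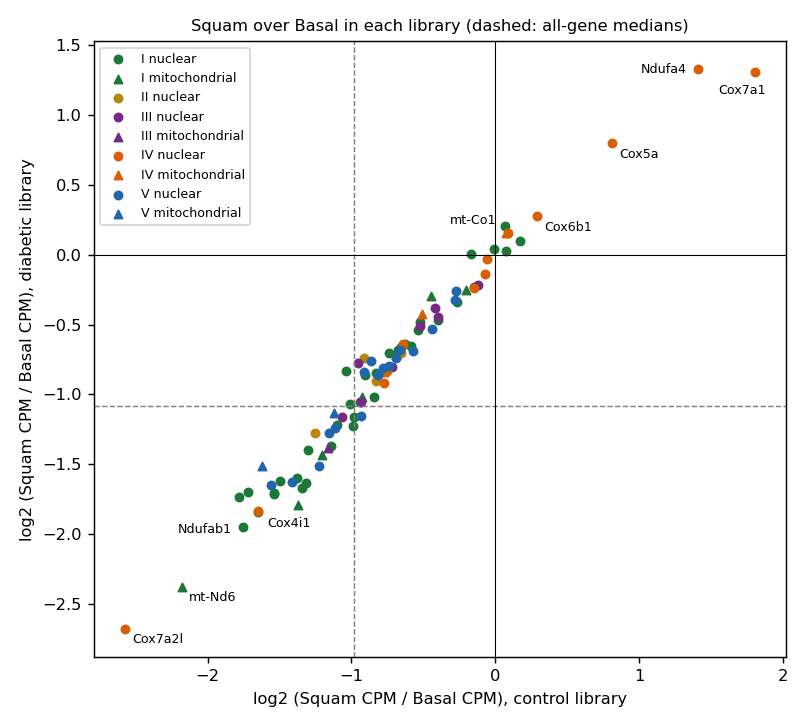
Log2 ratio of Squam over Basal CPM in the control library (horizontal axis) and the diabetic library (vertical axis), 1 point for each subunit with 50 or more UMIs in each library; colours mark complexes, circles nuclear and triangles mitochondrial subunits, and dashed lines the medians of all genes (-0.98 and -1.08). Ndufa4, Cox7a1 and Cox5a lie at the upper right and Cox7a2l at the lower left.

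Complex IV supplied the 3 rows called higher (Ndufa4, Cox5a, Cox7a1) and also Cox7a2l, the subunit with the lowest ratio among those called. Stretches of DNA from the 250 bases ahead of the RefSeq start of these 4 genes are shown because they include the rows called higher and the called subunit with the lowest ratio. Each is 200 bases long, 5′ to 3′ on the gene's strand, from RefSeq's annotation of GRCm38.p6, with CpG dinucleotides in capitals. The stretches were placed so that they hold no exon of the GENCODE annotation. That of Cox7a2l still lies inside the GENCODE span of its gene, which reaches further upstream than the RefSeq start.

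Ndufa4 (chr6:11907498-11907697, minus strand): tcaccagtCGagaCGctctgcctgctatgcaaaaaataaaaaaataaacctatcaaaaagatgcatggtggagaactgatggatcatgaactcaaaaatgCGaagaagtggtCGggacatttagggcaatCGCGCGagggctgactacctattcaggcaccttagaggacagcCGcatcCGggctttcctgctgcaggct
Cox5a (chr9:57521032-57521231, plus strand): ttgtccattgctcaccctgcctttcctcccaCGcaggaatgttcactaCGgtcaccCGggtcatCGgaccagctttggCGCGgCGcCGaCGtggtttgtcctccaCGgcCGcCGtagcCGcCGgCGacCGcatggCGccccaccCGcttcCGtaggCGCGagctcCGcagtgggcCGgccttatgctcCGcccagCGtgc
Cox7a1 (chr7:30183944-30184143, plus strand): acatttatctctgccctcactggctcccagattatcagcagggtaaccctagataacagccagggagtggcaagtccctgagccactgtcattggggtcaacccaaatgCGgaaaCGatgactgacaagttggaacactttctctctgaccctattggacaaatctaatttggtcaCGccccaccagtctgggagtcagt
Cox7a2l (chr17:83514334-83514533, minus strand): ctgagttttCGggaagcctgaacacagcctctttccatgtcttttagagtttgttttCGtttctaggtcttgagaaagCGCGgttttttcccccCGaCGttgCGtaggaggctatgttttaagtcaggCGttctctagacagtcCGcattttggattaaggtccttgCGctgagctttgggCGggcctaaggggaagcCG

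The Cox5a stretch is rich in CpG and that of Cox7a1 poor. In the full window of 250 bases ahead of the start, which for Ndufa4 and Cox7a1 takes in bases of the gene's own GENCODE exon, Cox5a had 26 CpG dinucleotides, Cox7a2l 13, Ndufa4 10 and Cox7a1 4. The 66 nuclear subunits with a promoter in the table had a median of 14 (quartiles 10 to 20), and all 27025 promoters a median of 6 (2 to 16). Of 4 motifs searched on both strands of the 250 bases (the ETS and YY1 letters can overlap by AAG), the ETS core CCGGAAG was found for 11 of 66 nuclear subunits (7.05% of all promoters), the NRF1 core GCGCATG for 10 (3.32%), the YY1 core AAGATGG for 0 (4.53%) and the TATA box TATAAA for 6 (13.0%). Factors of the ETS and NRF1 families are known to act on respiratory chain genes. None of these motifs was in the windows of Ndufa4, Cox5a, Cox7a1 or Cox7a2l, which says only that these letters are not in these windows.

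Ndufa4 (chromosome 6, 11900292 to 11907497, GRCm38) rose from 748 CPM in Basal to 1985 CPM in Squam cells of the control library and from 576 to 1445 CPM in the diabetic library, ratios of 2.66 (2.62 to 2.70) and 2.51 (2.47 to 2.55). Cox5a (chromosome 9, 57521274 to 57532426) rose from 323 to 567 CPM and from 278 to 484 CPM, ratios of 1.76 and 1.74. Cox7a1 (chromosome 7, 30184144 to 30186078) rose from 3.51 CPM (2.89 to 4.23) to 12.3 CPM (11.2 to 13.4) in control and from 3.55 CPM (2.95 to 4.25) to 8.80 CPM (7.78 to 9.91) in diabetic cells. Intervals were apart in both libraries for all 3 genes. Under median-of-ratios scaling their directions held, with Ndufa4 ratios of 4.81 and 4.85. Because Cox7a1 is known from muscle and brown fat, markers of both were read. Of 5 muscle markers 2 had a row, Ckm and Mylpf, and summed to between 1.43 and 4.59 CPM in the epithelial labels. Ckm was at 0 in Squam cells of both libraries. Mylpf was highest of the epithelial labels in Squam cells of both libraries, at 4.59 and 3.63 CPM. In Conj cells Mylpf was at 2.34 and 1.43 CPM. Of 4 brown fat markers 1 had a row, Cidea, at 0 CPM in Basal cells of both libraries, 7.13 and 9.22 CPM in Squam and 6.12 and 14.6 CPM in Conj cells. Their part in the Cox7a1 level was not tested.

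Cox7a2l (chromosome 17, 83501918 to 83517330) fell from 531 CPM in Basal to 89.2 CPM in Squam cells of the control library and from 573 to 89.5 CPM in the diabetic library, 5.95-fold and 6.40-fold. Cox4i1 (chromosome 8, 120668222 to 120674207) fell from 901 to 287 CPM and from 1025 to 288 CPM, 3.14-fold and 3.56-fold. Both also stayed below 1 under median-of-ratios scaling, at 0.305 and 0.301 for Cox7a2l and 0.577 and 0.542 for Cox4i1. Also called lower on the CPM scale were Cox5b, Cox6c and Cox7b, at log2 ratios of -0.64 and -0.64, -0.77 and -0.92, and -0.76 and -0.83. Of those not called, Cox8a was at 796 and 845 CPM in Basal and Squam cells of the control library, and Cox7a2 at 456 and 438 CPM.

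Within complex IV the mix of nuclear transcripts differed by label, a measure that does not depend on the total. Ndufa4 made up 11.3% (11.2 to 11.5) of complex IV nuclear UMIs in Basal cells and 30.6% (30.5 to 30.8) in Squam cells of the control library, and 9.34% (9.21 to 9.46) and 26.4% (26.2 to 26.6) in the diabetic library. In Conj cells its share was 34.0% and 34.3%. Cox4i1 went the other way, from 13.7% to 4.43% in control and from 16.6% to 5.26% in diabetic cells, as did Cox7a2l, from 8.05% to 1.38% and from 9.29% to 1.63%. Among the 3 mitochondrial subunits, mt-Co1 held 23.1% of UMIs in Basal and 33.7% in Squam cells of the control library, and 20.4% and 31.6% in the diabetic library. These shares compare UMIs, each molecule counted once, and not protein.

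**Figure D4:**
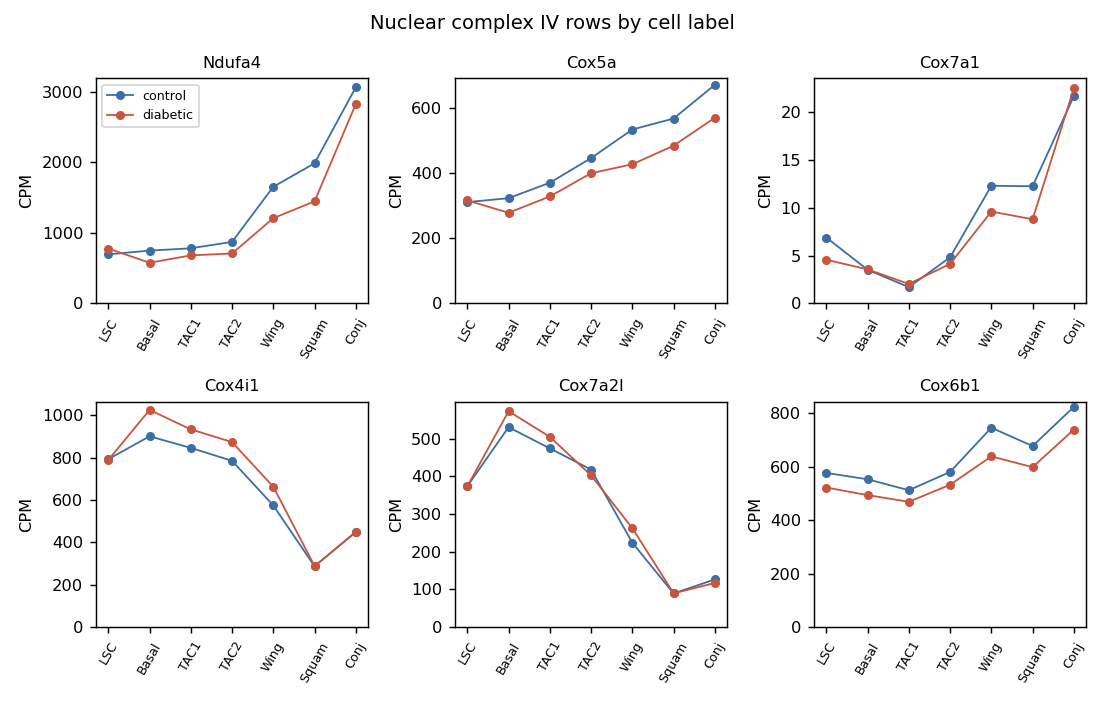
CPM (vertical axis, from 0) of 6 nuclear complex IV genes in each epithelial label (horizontal axis), blue control and red diabetic; lines join points of 1 library and stand for no order in time. Ndufa4, Cox5a and Cox7a1 are highest in Conj cells, and Cox4i1 and Cox7a2l are highest in Basal and lowest in Squam cells in both libraries.

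In Wing cells Ndufa4, Cox5a, Cox4i1 and Cox7a2l lay between their Basal and Squam levels, and Cox7a1 was near its Squam level. Of 100 rows, 4 were called higher than in Basal cells in both libraries (14.5% of all genes): Ndufa4 (1653 and 1207 CPM), Cox5a (534 and 427 CPM), Cox7a1 (12.3 and 9.60 CPM) and Ndufv3, a small subunit of the electron input module (231 and 201 CPM). Called lower were 9 rows (20.7% of all genes), among them Cox7a2l (224 and 262 CPM), Cox4i1 (574 and 662 CPM) and mt-Nd6 (6.63 and 7.15 CPM). The medians over all genes were -0.18 and -0.16 on the log2 scale.

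Conj cells shared the high Ndufa4 level. Their 3064 and 2827 CPM were the highest of the 7 epithelial labels, 4.10-fold and 4.91-fold the Basal levels. Of 100 rows, 8 were called higher than in Basal cells (16.3% of all genes) and 15 lower (38.1%), and the medians over all genes were -0.46 and -0.46. Besides Ndufa4, Cox5a and Cox7a1, the higher rows were Cox6a1 (217 and 200.4 CPM against 132 and 126 CPM), Ndufs3, a core subunit of complex I (240.3 and 262 CPM against 124 and 102), Ndufv3, Ndufc1 and mt-Co1. The lower rows included 5 of 13 mitochondrial subunits: mt-Nd1, mt-Nd2, mt-Nd4l, mt-Nd6 and mt-Atp8. That count is near the share of all genes called lower (38.1%). TAC1 and TAC2 cells each had 1 row called higher than in Basal cells (6.08% and 10.4% of all genes), the assembly factor Ndufaf2 in both. Called lower were Cox7a1 in TAC1 cells, 1 row beside 0.707% of all genes, and 0 rows in TAC2 cells (1.55%).

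In complex I the deepest Squam to Basal differences among nuclear subunits were those of Ndufab1, the mitochondrial acyl carrier protein, at 172 and 50.9 CPM in control cells and 144 and 37.1 CPM in diabetic cells, 3.37-fold and 3.87-fold lower, and Ndufa12, at 191 and 55.4 CPM and 192 and 57.6 CPM. Ndufs4 and Ndufa3 were the highest, at log2 ratios of 0.07 and 0.21 and of 0.17 and 0.10. Among its mitochondrial rows mt-Nd6 had the lowest, -2.18 and -2.38, then mt-Nd3 at -1.37 and -1.79. The highest were mt-Nd4, at -0.20 and -0.25, and mt-Nd5, at -0.45 and -0.29. The 8 assembly factors were all called lower (58.8% of all genes), with medians of -1.73 and -2.06, or 0.75 and 0.98 below all genes. Their sum was 227 CPM in Basal and 83.5 CPM in Squam cells of the control library, and 199 and 64.1 CPM in the diabetic library.

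All 4 complex II subunits were called lower in Squam cells, beside 58.8% of all genes, from Sdhb (175 in Basal and 111 CPM in Squam cells of the control library, 156 and 95.7 CPM in the diabetic library) to Sdhd (80.2 and 33.7 CPM; 82.8 and 34.1 CPM). In complex III Uqcr11 and Uqcrh were lowest, at log2 ratios of -1.07 and -1.16 and of -0.94 and -1.05. Uqcrb was highest at -0.12 and -0.22, then Uqcrq at -0.42 and -0.38, and mt-Cytb stood at -1.16 and -1.38. In complex V Atp5a1 was lowest, at 274 and 93 CPM in control cells and 262 and 83.7 CPM in diabetic cells, then Atp5g2 at log2 ratios of -1.41 and -1.63. The highest were Atp5d (-0.27 and -0.26) and Atp5md (-0.28 and -0.32). Both mitochondrial subunits were called lower (58.8% of all genes), mt-Atp6 at -1.12 and -1.13 and mt-Atp8 at -1.63 and -1.51.

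**Figure D5:**
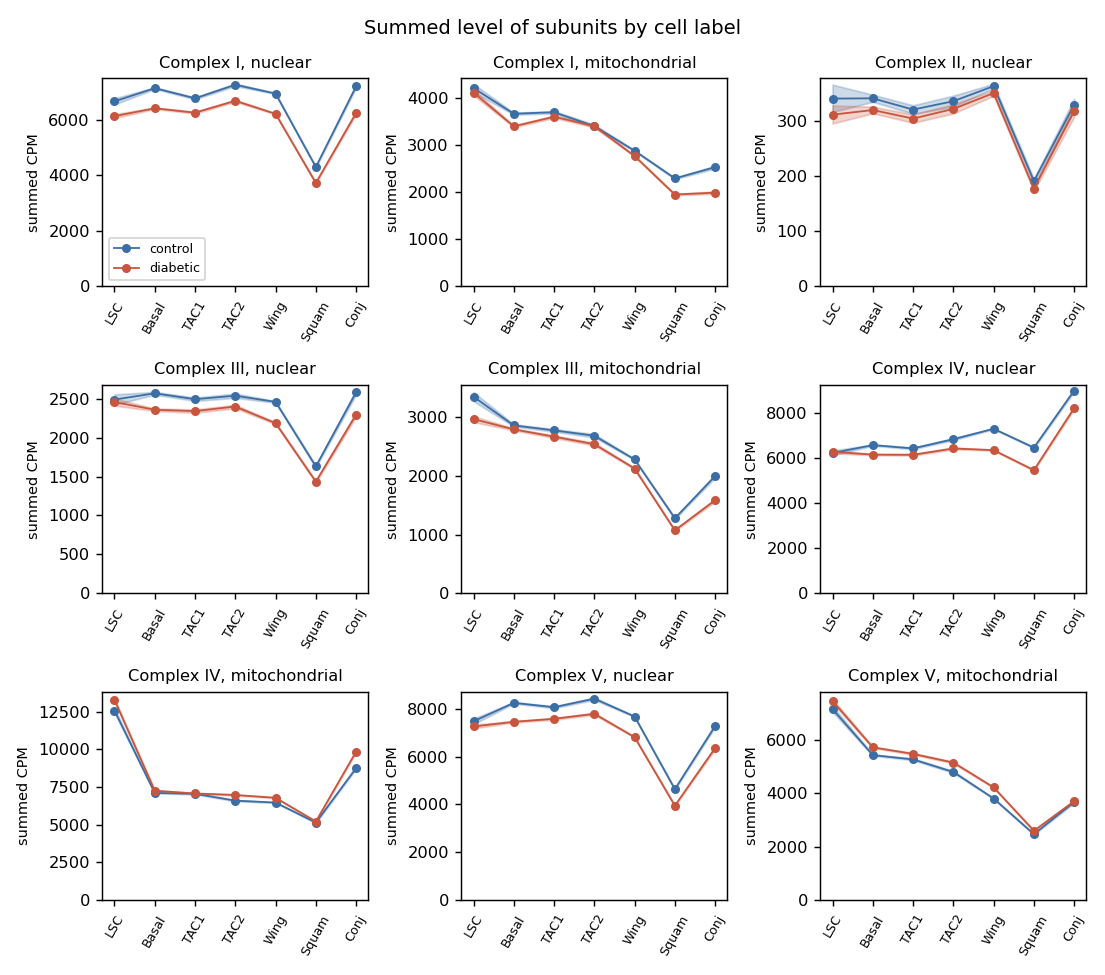
Summed CPM of the subunits of each complex and genome (vertical axes, each from 0) by epithelial label (horizontal axes), blue control and red diabetic, with 95% Poisson bands. Squam cells are lowest in every panel except nuclear complex IV of the control library, and LSC cells highest in the 4 mitochondrial panels.

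Paired isoforms were read where both had a row. The c-ring of complex V is made from 3 genes that encode the same mature protein: Atp5g2 was at 919 CPM in control Basal cells, Atp5g1 at 423 CPM and Atp5g3 at 246 CPM. In Squam cells they were at 345, 181 and 155 CPM. The rare isoforms rested on few UMIs. Cox6b2 was at 5.05 CPM (2.52 to 9.03) in control LSC and 3.65 CPM (2.68 to 4.85) in control TAC2 cells, against 0.0769 CPM (0.0159 to 0.225) in control Squam cells, while Cox6b1, its common partner, was at 576, 580 and 677 CPM. Ndufa4l2, a relative of Ndufa4 known as induced by low oxygen, had 22 and 8 UMIs in the 2 libraries, of which 5 and 6 were in LSC cells. Cox8c had 4 UMIs in the control library and 0 in the diabetic library, where a count of 0 allows a level of up to 0.0175 CPM (3 counts of the total; the two-sided interval reaches 0.0216 CPM). Cox4i2, Cox6a2, Cox7b2 and Cox8b had no row in the matrix.

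Genes that build or feed the chain were read from lists grouped by function. The list of assembly factors includes the 8 Ndufaf rows. Between the libraries, over all cells, 1 of 18 genes of the ubiquinone and cytochrome c list was called higher, Coq8a, a kinase-like protein of ubiquinone synthesis, from 3.19 to 5.91 CPM (ratio 1.85, 1.68 to 2.05). Of all genes 5.98% were called higher and 2.8% lower, so this count is near the background. Of 47 assembly factors, 7 ATP export and channel genes, 16 genes of the TCA cycle, 15 of mitochondrial DNA expression, 9 transcriptional regulators and 78 mitochondrial ribosomal proteins, 0 were called either way. Their median log2 ratios ran from -0.06 for the mitochondrial ribosome to 0.11 for the regulators. In Squam against Basal cells, called lower were 35 of 47 assembly factors, 16 of 18 electron carrier genes, 5 of 7 export genes, 11 of 16 TCA cycle genes, 15 of 15 genes of mitochondrial DNA expression, 4 of 8 regulators and 68 of 78 ribosomal proteins, beside 58.8% of all genes. The counts for export genes, TCA cycle genes and regulators are near that share. Called higher, beside 16.1% of all genes, were Coq10b (71.3 to 120 CPM in control), Pdha1, a subunit of pyruvate dehydrogenase (50.2 to 95.4 CPM), Gabpb1 (5.19 to 7.95 CPM) and Mrpl14 (109 to 246 CPM). All but the regulators had median log2 ratios below the medians of all genes.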

How the data were processed

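Single-cell 3′ RNA libraries of corneal epithelium, 1 from control and 1 from diabetic mice, were analysed from the authors' deposited matrix of raw UMI counts per gene and cell and from the authors' deposited table of cell labels. Per the submitters' processing notes, Cell Ranger 5.0.0, Seurat 4 and the build mm10 were used. The sources used here do not give their roles, the cell filters or the handling of reads shared with pseudogenes. No cell was left out of the main values, no ambient RNA correction was made, and doublets were not removed, because Scrublet (in scanpy 1.11.5) marked 0 cells with its automatic threshold.

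Counts were summed over the cells of each library and label and divided by the total to give CPM. Poisson intervals of levels, conditional binomial intervals of ratios and Clopper-Pearson intervals of shares were exact, at 95%, and cover counting error only. Depth per library and label bounds this precision, and the spread between animals cannot be estimated. Named genes were members that met the rule of size between the libraries, the 2 highest and 2 lowest of each complex and genome over all cells and in Squam over Basal cells, the isoform families, all mitochondrial rows and the Sdh genes. A gene that this rule would name is not reported here. Genes were also named outside that rule after their values were seen: examples below 1 in every label, members from the other comparisons between labels (of those called lower in Wing and Conj cells, some), further complex IV subunits, the ends of the assembly factors' range, Atp5g1 in Squam cells, and single genes from other lists. The members and lists were chosen with earlier results of these data known. Contrasts of Wing, LSC, Conj, TAC1 and TAC2 with Basal cells were chosen after seeing values. Gene positions come from GENCODE M21 (GRCm38). Scripts ran in Python 3.11.15 with pandas 2.3.3 and numpy 2.4.6 for sums, scipy 1.17.1 for intervals and matplotlib 3.10.9 for figures. Alternatives covered scaling, count minimum, fold, cell filters, cell and label weights, thinning and the place of Ndufa4.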

Additional observations from a re-analysis of the deposited data

Results flagged for a closer look

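The mt-Nd6 row moved in opposite directions in 2 labels. The ratio of diabetic over control CPM was 2.50 in LSC cells, on 18 and 95 UMIs, and 0.586 in Conj cells, on 107 and 63 UMIs. The difference between these labels was not tested. In the other epithelial labels the ratio was 1.01 in Basal, 1.14 in TAC1, 1.19 in TAC2, 1.08 in Wing and 0.877 in Squam cells.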

How the results depend on the processing

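Under median-of-ratios scaling the nuclear sum in Squam over Basal cells turned from 0.692 to 1.254 in control and from 0.650 to 1.254 in diabetic cells, and the mitochondrial sum from 0.586 to 1.061 and from 0.565 to 1.090. Between libraries the same scaling gave 0.871 for the nuclear and 1.004 for the mitochondrial sum. With equal weight for every cell the mitochondrial sum between libraries turned from 1.046 to 0.992. For the nuclear sum between libraries (0.907), the value was 0.905 without the most abundant genes in the total, 0.910 without cells of high doublet score, 0.910 with every cell equal and 0.898 with equal label weights. For the mitochondrial sum it was 1.043 without abundant genes, 1.039 without high doublet scores, 1.008 thinned to 5000 UMIs and 1.012 with equal label weights. In Squam over Basal cells (control, then diabetic), the nuclear sum was 0.687 and 0.644 without mitochondrial genes in the total, 0.836 and 0.806 without abundant genes, 0.668 and 0.641 without high doublet scores, 0.670 and 0.635 with every cell equal, and 0.666 and 0.634 thinned. The mitochondrial sum was 0.581 and 0.560, 0.708 and 0.701, 0.570 and 0.552, 0.554 and 0.561, and 0.575 and 0.551 in the same order.

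The mitochondrial to nuclear ratio in diabetic relative to control cells (1.15) was 1.14 without high doublet scores, 1.09 with every cell equal and 1.11 thinned. In LSC relative to Basal cells (1.54 and 1.47) it was 1.505 and 1.410 without cells over 10% mitochondrial UMIs, 1.63 and 1.55 without high doublet scores, and 1.74 and 1.85 with every cell equal. With Ndufa4 in complex I, the complex I ratio in Squam relative to Basal cells turned from 1.039 to 0.785 in control and moved from 0.989 to 0.776 in diabetic cells, and that of complex IV moved from 0.735 to 0.940 and from 0.809 to 0.996. Taken as medians over members, the ratio moved from 0.846 to 0.901 in control and from 0.869 to 0.860 in diabetic cells.

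With the lower fold tried, calls over all cells went from 0 to 3 and pairs of a row and a label from 4 to 51. The pairs went to 1 at a fold of 2 and to 1 at a minimum of 200 counts. Rows lower in Squam than Basal cells (69, beside 58.8% of all genes) went to 17 under median-of-ratios scaling (34.3%). They went to 42 without abundant genes, 36 at a fold of 2 and 9 with Wing in place of Squam (20.7%). Rows higher (3, beside 16.1%) went to 19 under median-of-ratios scaling (29.3%). At the other folds, at 200 counts and without abundant genes the share of all genes was not computed. Counts of calls at those settings thus have no background beside them. The causes were not tested. No paired analysis was possible because each group is 1 library. Depth limited rows with few UMIs: Cox8c and Ndufa4l2 were under the count minimum over all cells, and the calls of mt-Nd6 and Cox6b2 rested on few UMIs.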
